A study of Mus musculus with 4 samples.

Results

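The Fos family consists of 4 genes, Fos, Fosb, Fosl1 and Fosl2, which were taken by name from the 32285 genes of the count matrices and followed through the cell types of the mouse ovary. All 4 members had UMIs (unique molecular identifiers, each standing for 1 captured RNA molecule) in all 4 libraries, with 1183669 Fos, 654859 Fosb, 4549 Fosl1 and 109032 Fosl2 UMIs over all barcodes. The libraries are single-cell 3′ libraries (10×Genomics, v3 chemistry) of whole ovaries from 8-week-old females of 1 litter. Libraries 1 and 2 of Fosl2F/F came from Fosl2flox/flox mice without Cre, and libraries 1 and 2 of Fosl2cKO from Cyp19a1-Cre; Fosl2flox/flox mice, so that both groups carried the floxed Fosl2 alleles and only the second carried the Cre transgene, driven by the promoter of Cyp19a1, the aromatase gene of granulosa cells. The design asked what deletion of Fosl2 in granulosa cells does to the cells of the ovary, and the family raises the narrower question of where its members are transcribed and whether their levels differed between the conditions.

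Fos proteins carry a basic region that contacts DNA and a leucine zipper, and they bind DNA as heterodimers with a Jun protein. The dimer is called AP-1 and recognises the sequence TGACTCA. Fos and Fosb are immediate early genes, transcribed within minutes of a growth factor, gonadotropin or stress signal, whereas Fosl1 (Fra-1) and Fosl2 (Fra-2) lack the strong activation domain of Fos and are usually transcribed later and for longer. In the ovary, AP-1 factors are known as mediators of the response of granulosa cells to the luteinizing hormone surge. Dissociation of a tissue into single cells is itself known to induce immediate early genes, and its part in the levels below was not tested.

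The members lie on 4 chromosomes of build GRCm38, each with 4 exons in its first annotated transcript. Fos is on the plus strand of chromosome 12 (chr12:85473890-85477273), Fosb on the minus strand of chromosome 7 (chr7:19302696-19310051), Fosl1 on the plus strand of chromosome 19 (chr19:5447547-5455946) and Fosl2 on the plus strand of chromosome 5 (chr5:32135801-32157842). Fos and Fosb, the pair whose levels were most alike over cell types below, both hold the letters TGACG, the shared part of cyclic AMP response elements, shortly before their RefSeq start. The stretches are shown 5′ to 3′ on the strand of the gene (GRCm38.p6), with TGACG in capitals, and lie 66 bases before the start in Fos and 60 bases before it in Fosb.
Fos, chr12:85473812-85473841: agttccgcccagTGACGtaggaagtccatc
Fosb, chr7:19310088-19310117: tggagttgcgggTGACGcaagcgcgggggc
Fos holds a second copy 129 bases before its start (chr12:85473749-85473778, ggggcgtagagtTGACGacagagcgcccgc). On either strand, TGACG occurs in 20.8% of the 32851 RefSeq promoter windows of this length (250 bases before to 50 after a start), and the Fosl2 window holds no copy. TATAAA was found in the window of Fos and not in those of Fosb and Fosl2, against 13.6% of all windows, and TGACTCA in none of the 3, against 5.20%. The set of windows holds none for Fosl1, so its promoter was not searched. A match is a description of the letters and not of binding.

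After filtering, 41538 cells of 57109 barcodes remained, between 6760 and 19575 a library. Library 2 of Fosl2F/F held the most cells at the lowest depth, with a median of 3655 UMIs per cell against 11177 to 12465 in the other 3, while the summed UMIs of the libraries lay between 104303269 and 111314200. Clustering without the 4 members gave 26 clusters, which markers assigned to 12 classes, of which 11 had at least 20 cells in every library. In 9 of the 12 classes every measured marker was highest in its own class, and in endothelial, lymphatic endothelial and theca cells 6 of 9, 5 of 6 and 6 of 8 were. The same markers named the clusters, so these counts describe the classes and do not check their names. Library pairs shared 10 to 38 barcodes. All class names below mean cells that resemble the class by these markers.

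**Figure D1:**
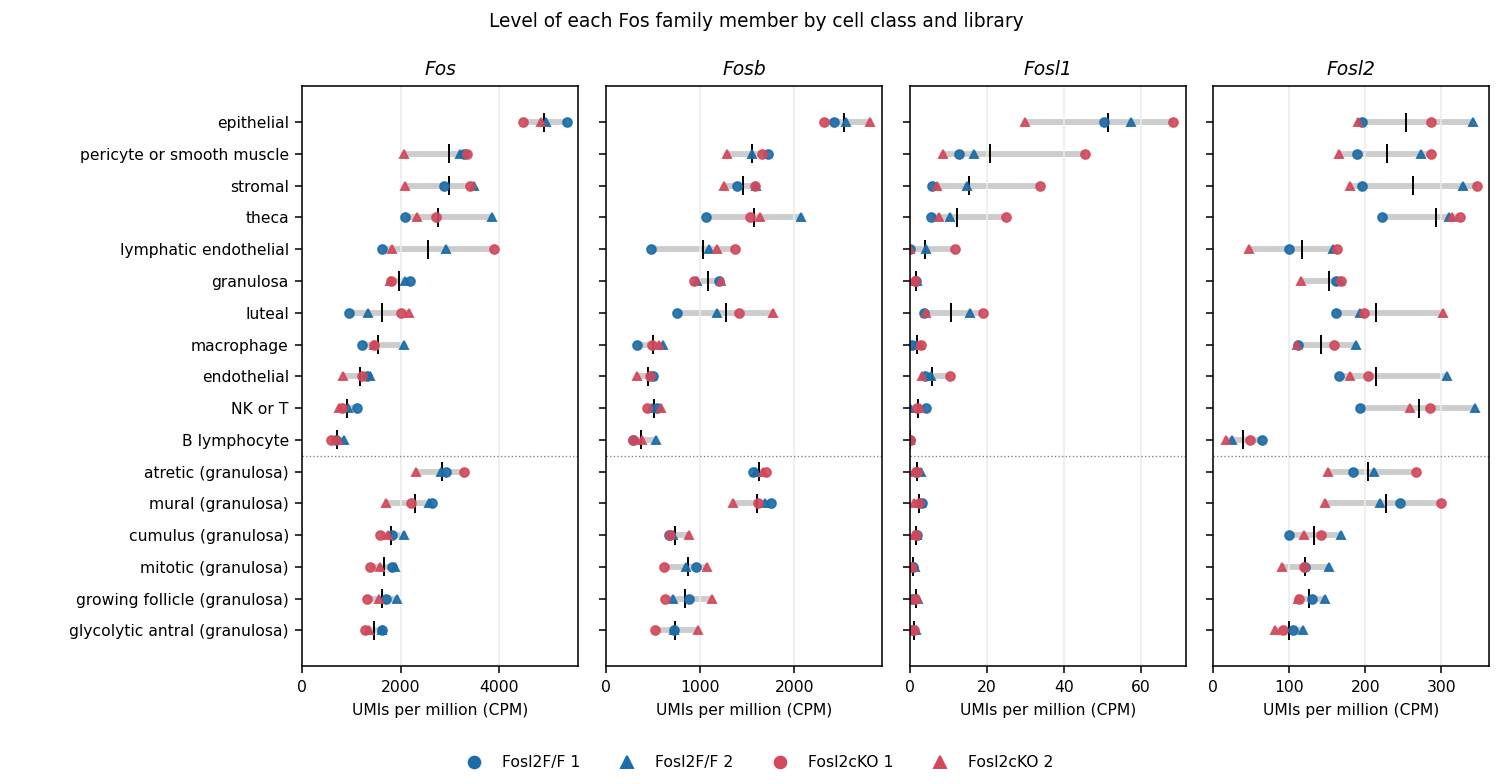
Level of each member (x axis, UMIs per 1000000 UMIs of the class, CPM) in 11 classes and, under the dotted line, 6 granulosa subclasses (y axis), with points for the 4 libraries (blue for Fosl2F/F, red for Fosl2cKO, circles for library 1, triangles for library 2), grey bars from the lowest to the highest library and black ticks at the mean. Epithelial cells sit highest for Fos, Fosb and Fosl1, whereas the Fosl2 bars of most classes overlap.

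Fos, the founding immediate early member, was detected in every class and was highest in epithelial cells, the surface layer of the ovary. In epithelial cells its level was 5372 and 4960.2 CPM for Fosl2F/F and 4477 and 4850.3 CPM for Fosl2cKO (mean 4915 ± 368, SD, n = 4). The lowest epithelial library lay above the highest library of the next class, so that this step was larger than the spread, and epithelial cells held 2.38 to 2.73 times the Fos level of granulosa cells in 4 of 4 libraries. Pericyte or smooth muscle cells (mean 2977 CPM), stromal cells (2973), theca cells (2749.6, range 2095 to 3845) and lymphatic endothelial cells (2563) followed with ranges that overlapped from neighbour to neighbour. Granulosa cells, the layer that surrounds the oocyte, held 2182 and 2087 CPM for Fosl2F/F and 1811 and 1779 CPM for Fosl2cKO, below stromal and pericyte or smooth muscle cells of the same library in 4 of 4 libraries. Luteal cells (1609 CPM), macrophages (1545), endothelial cells (1181), NK or T cells (899.7) and B lymphocytes (708) were lower. Over the 10 steps of this order, 3 held in all 4 libraries and only the first had no overlap between the classes.

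Fosb followed a similar order. Epithelial cells were again highest, at 2423 and 2554 CPM for Fosl2F/F and 2311 and 2806 CPM for Fosl2cKO, all above every library of theca cells, which came next (mean 1575 CPM, range 1065 to 2071). Pericyte or smooth muscle cells (1553 CPM), stromal cells (1455), luteal cells (1279) and granulosa cells (1079) were intermediate. With finer clusters a cluster of 1110 cells led by Myh11 stayed unnamed. The pericyte or smooth muscle cells named there, clusters of 786 and 311 cells against 2213, held 951 CPM, below granulosa cells. NK or T cells (510.2 CPM), macrophages (496), endothelial cells (448) and B lymphocytes (369) were lowest, each below granulosa cells in 4 of 4 libraries. The B lymphocyte level became 215 CPM when doublet removal was doubled, which left 4 cells in library 2 of Fosl2F/F and 7 in library 1 of Fosl2cKO. Lymphatic endothelial cells ran from 476 to 1371 CPM.

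Fosl1 was the scarcest member and the most unevenly distributed. Its level in epithelial cells was 50.5 and 57.5 CPM for Fosl2F/F and 68.3 and 30.03 CPM for Fosl2cKO, which was 26.4 to 48.7 times that of granulosa cells. Pericyte or smooth muscle cells (mean 20.9 CPM), stromal cells (15.4), theca cells (12.3) and luteal cells (10.6) formed the next group, each above granulosa cells in 4 of 4 libraries. In 8 of the 10 classes with any Fosl1 UMI, library 1 of Fosl2cKO was the highest of the 4, and in pericyte or smooth muscle cells it stood at 45.5 CPM against 12.7, 16.7 and 8.61 CPM in the others. Without that library the mean levels became 12.7 CPM in pericyte or smooth muscle, 9.21 CPM in stromal and 7.99 CPM in theca cells. With finer clusters, which left the cells led by Myh11 unnamed, the pericyte or smooth muscle level was 11.2 CPM. Granulosa cells held 1.14 to 2.03 CPM, and B lymphocytes held no Fosl1 UMI. The mean Fosl1 level of granulosa cells was 3.02% of that of epithelial cells, while the 9 epithelial markers stood in granulosa cells at 0.0946% to 7.25% of their epithelial level (median 0.110%), and the part of free RNA in the granulosa value was not tested.

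Fosl2, the deleted gene, was highest in theca cells, with 222 and 310.3 CPM for Fosl2F/F and 324 and 314 CPM for Fosl2cKO (mean 292 ± 47.5, SD, n = 4). NK or T cells (mean 270.2 CPM), stromal cells (263), epithelial cells (253), pericyte or smooth muscle cells (228), luteal cells (214) and endothelial cells (214) lay close behind, and no step of the order was free of overlap. Under other filters or clusterings NK or T cells reached up to 309 CPM, above theca cells, which stayed at 291 to 295 CPM. Granulosa cells ranked eighth of 11, at 161 and 167 CPM for Fosl2F/F and 167 and 115 CPM for Fosl2cKO. Each of the 7 classes above them exceeded them in 4 of 4 libraries, theca cells by 1.38 to 2.72 times. The theca class joins a cluster of 1782 cells led by Cyp17a1, the gene of androgen synthesis, with one of 3650 cells that has Star but not Cyp17a1 among its leading genes. B lymphocytes were lowest (38.6 CPM), but this rests on as few as 1 UMI in a library. Their level became 80.1 CPM without integration. It became 20.3 CPM when doublet removal was doubled, which left 4 cells in library 2 of Fosl2F/F and 7 in library 1 of Fosl2cKO.

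Oocytes, the germ cells, numbered 127 and fell below 20 cells in a library, so they stay outside the order. Their Fos level ranged from 389 to 1510 CPM and their Fosl2 level from 10.9 to 106 CPM over the 4 libraries, the lowest Fos value resting on 17 UMIs.

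Among the 6 named granulosa subclasses, Fosb was highest in mural and atretic cells. Mural cells, which line the wall of antral follicles, held 1754 and 1684 Fosb CPM for Fosl2F/F and 1611 and 1346 CPM for Fosl2cKO. Atretic cells, of follicles that degenerate, held a mean of 1629 Fosb CPM, level with mural cells in rank. The other 4 subclasses lay between 522 and 1126 Fosb CPM in every library, without overlap with mural cells, whose level was 1.83 times that of mitotic cells (mean 875 CPM), the next in order. Growing follicle cells (837 CPM), glycolytic antral cells (738) and cumulus cells (734) could not be ranked among themselves.

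For Fos, the order of the 6 named subclasses ran from atretic (mean 2836 CPM) over mural (2282), cumulus (1799), mitotic (1661) and growing follicle (1626) to glycolytic antral cells (1465), with overlap at every step, although 3 of the 5 steps held in 4 of 4 libraries. Among the named subclasses Fosl2 was also highest in mural (228 CPM) and atretic cells (203) and lowest in glycolytic antral cells (99.0), and atretic cells exceeded cumulus cells (132) in 4 of 4 libraries. When the libraries were clustered without integration, the cells named glycolytic antral were a different and smaller set, 1 cluster of 283 cells against 1711, at 773 Fos and 406 Fosb CPM, while a cluster of 2013 cells with Cox4i2 and Ldha among its leading genes stayed unnamed. The mean Fosl1 level stood between 0.887 and 2.38 CPM in the 6 subclasses, and without integration at 0.573 CPM in the 947 growing follicle cells named there, against 1779, and 0.629 CPM in the glycolytic antral cells. A further granulosa cluster of 301 cells, left unnamed because no marker was among its leading genes, held 5503 Fos, 2725 Fosb and 282 Fosl2 CPM, all above the named subclasses, at a median of 3460 UMIs per cell. Its Fos level ran from 4035 to 6197 CPM over the libraries and overlapped that of epithelial cells, the highest class. Its leading genes include Asb4, Dync1i1 and Dgkb, which also lead clusters of the stromal, theca and pericyte or smooth muscle classes, and when doublet removal was doubled its cells in library 2 of Fosl2F/F fell from 89 to 4, so that its place among granulosa cells is uncertain. The other unnamed granulosa cluster, of 311 cells, held 1228 Fos, 1196 Fosb and 217 Fosl2 CPM.

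**Figure D2:**
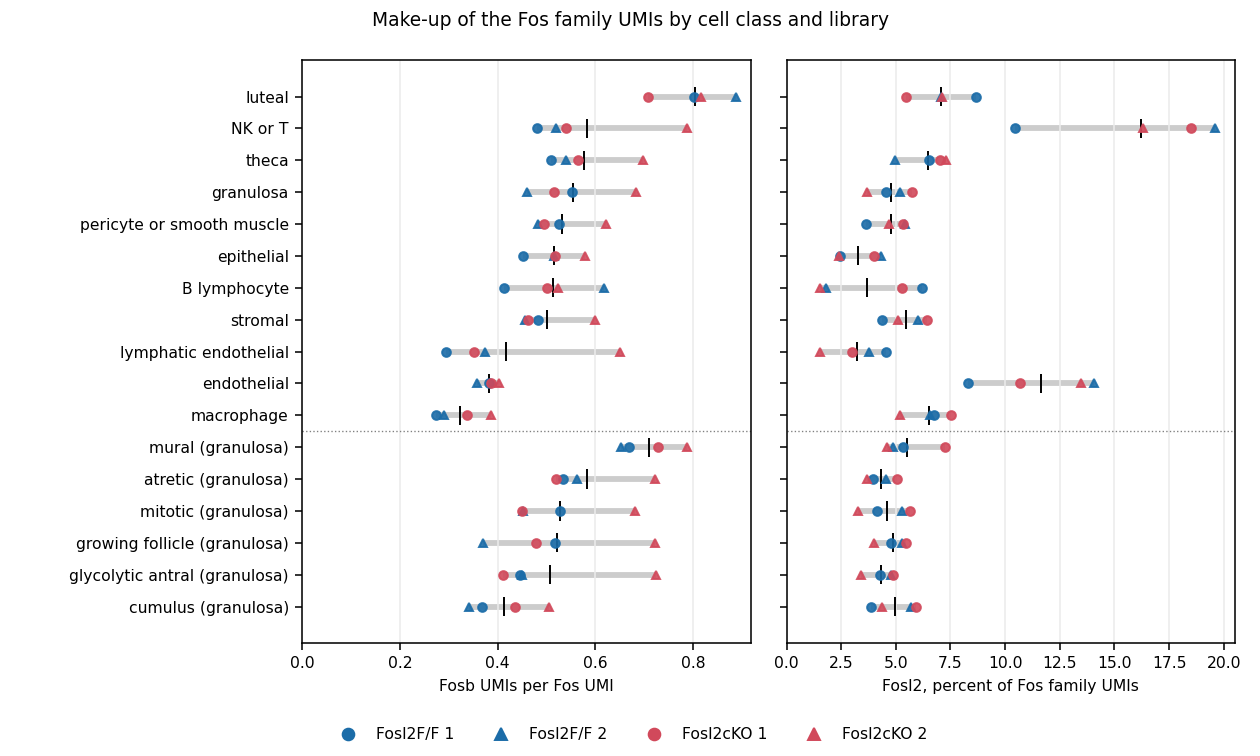
Make-up of the family UMIs in each class and granulosa subclass (y axis), as Fosb UMIs per Fos UMI (left x axis) and Fosl2 as a percent of the UMIs of all 4 members (right x axis), with points for the libraries, grey bars for their range and black ticks at the mean. Luteal and mural cells sit at the upper end of the Fosb ratio and macrophages at the lower end, and NK or T and endothelial cells at the upper end of the Fosl2 share.

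The balance between members also differed between classes. Each 3′ UMI stands for 1 molecule whatever the length of the transcript, so the counts were not divided by length, and only the change of a ratio from class to class is read, since capture can differ between genes. Luteal cells, the progesterone-producing cells of the corpus luteum, had 0.802, 0.887, 0.709 and 0.816 Fosb UMIs per Fos UMI in libraries 1 and 2 of Fosl2F/F and 1 and 2 of Fosl2cKO. Mural cells, their precursors in the follicle, had 0.668, 0.652, 0.728 and 0.788. Macrophages had 0.274, 0.291, 0.338 and 0.385 and endothelial cells 0.382, 0.358, 0.386 and 0.403, so that the classes did not overlap with luteal or mural cells in any library. The macrophage class is 1 cluster of 1718 cells that has H2-Aa, Cd74 and other genes of antigen presentation beside C1qa among its leading genes and scored as high for the neutrophil as for the macrophage markers, so its name does not separate macrophages from other myeloid cells. With finer clusters the macrophages numbered 1086, and a cluster of 632 cells led by Cd74 stood apart and unnamed, while the Fos, Fosb and Fosl2 levels of the class moved by less than 1.5 times. Cumulus cells (0.412 ± 0.0729, SD, n = 4) lay below mural cells (0.709 ± 0.0616), although both are granulosa subclasses. The counts do not show the stage of the follicles they came from. Library 2 of Fosl2cKO had the highest ratio in every granulosa subclass and in every tested class other than luteal cells and B lymphocytes.

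Fosl2 made up 16.2% ± 4.09 (SD, n = 4) of the family UMIs in NK or T cells and 11.6% ± 2.66 in endothelial cells, against 3.21% to 7.09% on average in the other 9 classes. In NK or T cells the share was 10.4% and 19.6% for Fosl2F/F and 18.5% and 16.3% for Fosl2cKO, the lowest of which exceeded the highest library of luteal cells (8.69%). The high share of NK or T cells went with a Fosl2 level near the top of the order and a Fos level near its bottom.

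**Figure D3:**
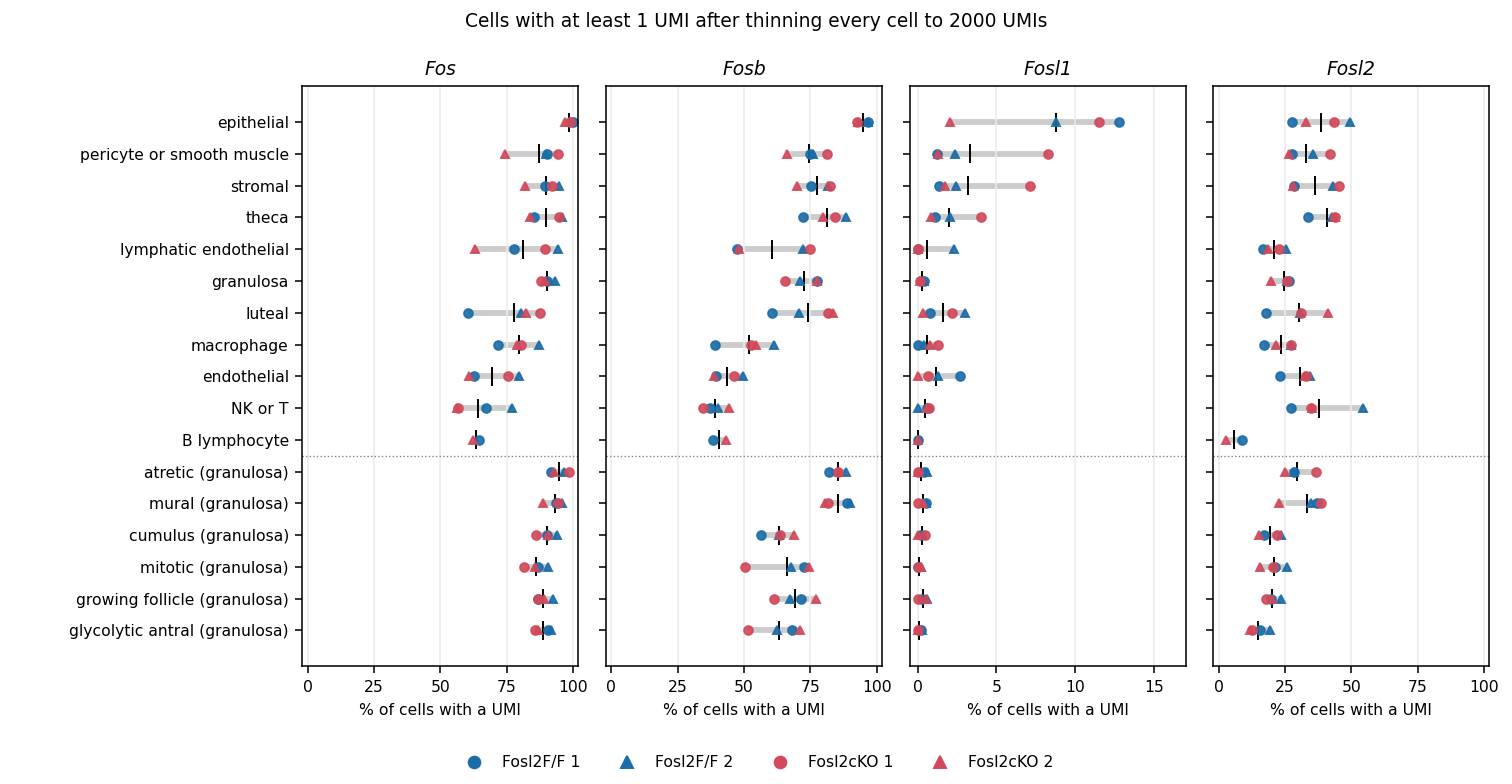
Percent of cells with at least 1 UMI of each member (x axis; the Fosl1 axis is shorter) by class and granulosa subclass (y axis), after every cell was thinned to 2000 UMIs, with points for libraries of at least 20 such cells, grey bars for their range and black ticks at the mean. Fos and Fosb reach most cells of most classes and Fosl1 few cells outside epithelial cells. By its mean, Fosl2 reaches a minority in every class, with library 2 of Fosl2F/F at 54.3% in NK or T cells.

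Counted by cells, Fos was broadly detected. After every cell was thinned to 2000 UMIs, 90.2% ± 2.23 (SD, n = 4) of granulosa cells had a Fos UMI, 72.8% ± 5.74 a Fosb UMI, 24.5% ± 3.25 a Fosl2 UMI and 0.276% ± 0.141 a Fosl1 UMI, while without thinning the shares were 98.4%, 93.5%, 71.1% and 2.08%. Thinning left out up to 8.67% of granulosa cells in a library and up to 85.7% of NK or T cells. In epithelial cells 98.6% had a Fos, 94.7% a Fosb, 38.4% a Fosl2 and 8.78% a Fosl1 UMI. NK or T cells and endothelial cells had the lowest Fos shares among classes with 4 libraries, at 64.3% and 69.6%, yet 37.9% and 30.8% of them had a Fosl2 UMI. No class is known to lack Fos, so no share could be set against a class without the gene. Cyp19a1, which belongs to granulosa cells (mean 88.4 CPM), stood at means of 1.41 to 7.98 CPM in the other classes, highest in oocytes. The part of free RNA in these means was not tested. Library 1 of Fosl2F/F was the highest library for Cyp19a1 in 10 of the 11 tested classes, which include granulosa cells and leave out oocytes. It held 15.9 CPM in pericyte or smooth muscle cells against 2.21, 0.784 and 0.287 CPM in the others. In NK or T cells it held 14.3 CPM against 0.92 to 2.67 CPM.

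Fosb was detected more often in cells with a Fos UMI than in cells without one. Among granulosa cells thinned to 2000 UMIs, 75.4% ± 5.63 (SD, n = 4) of cells with a Fos UMI also had a Fosb UMI, against 49.1% ± 6.37 of those without. The gap was 38.3 to 48.3 percentage points in pericyte or smooth muscle cells and 33.6 to 40.8 in stromal cells, and smaller in mural cells, at 12.3 to 21.9. The share was higher in Fos-positive cells in every library of every class with at least 20 cells on both sides in all 4 libraries, by as little as 0.0154 percentage points in 1 library of glycolytic antral cells. For Fosl2 the gap was narrower: 25.1% against 19.1% in granulosa cells and 37.9% against 21.2% in stromal cells, with no constant sign over the libraries in theca (40.8% against 43.0%) and luteal cells (30.9% against 29.97%), each higher in 2 of 4. It was higher in 3 of 4 libraries in cumulus, glycolytic antral, growing follicle and mitotic cells. Cells of a class also differ in state, and their counts share a library, so these shares describe co-detection and are given without a test.

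Across the 11 class means, the log2(CPM + 1) profile of Fos ran with that of Fosb (Pearson r = 0.92, n = 11 classes), and both ran less closely with Fosl2 (r = 0.53 and 0.56). Fosl1 ran with Fos at r = 0.84, with Fosb at 0.85 and with Fosl2 at 0.73. The points share the same 4 libraries and their depth. Among 7802 genes with a mean of at least 20 CPM, the profiles most like Fos were those of Eda, Ift57, Wls, Fosb and Mir99ahg (r from 0.95 to 0.92), and those most like Fosb were Slc4a4, Nenf, Chpt1, Tgfa and Eda. Inf2, Errfi1, Palld, Ccdc80 and Kirrel, all highest in epithelial cells, were most like Fosl1. Osbpl3, Slc25a46, Borcs7, Surf1 and Mrpl58 were most like Fosl2, with r from 0.93 to 0.89.

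The comparison of the conditions began with the targeted gene. In granulosa cells, where the Cre driver Cyp19a1 stood at 219 and 57.8 CPM for Fosl2F/F and 33.5 and 43.7 CPM for Fosl2cKO, Fosl2 gave a log2 fold change of -0.25 (SE 0.20, n = 2 per condition, edgeR adjusted p = 1.0) from the values given above. Library 1 of Fosl2cKO lay at the level of the Fosl2F/F libraries and library 2 below them. Without library 1 of Fosl2cKO the granulosa estimate became -0.51, and without library 2 -0.02. In mural cells, the subclass with the most Cyp19a1, Fosl2 stood at 246 and 219 CPM for Fosl2F/F and 299 and 147 CPM for Fosl2cKO, above and below both controls (log2 fold change -0.12, SE 0.33, edgeR adjusted p = 1.0). Without library 2 of Fosl2cKO the mural value became 0.30, and without library 1 -0.71. Both Fosl2cKO libraries lay below both Fosl2F/F libraries for Fosl2 in 3 of 6 subclasses, mitotic (log2 fold change -0.40, SE 0.20), growing follicle (-0.38, SE 0.19) and glycolytic antral cells, where 16.7%, 11% and 16.9% of all tested genes did the same, and Fosl2 was called in none of them. LoxP sites flank exons 2 and 4 of Fosl2. Its first annotated transcript has 4 exons, and 3′ libraries are read from the end of a transcript. The counts do not say which exon or intron a UMI came from. UMIs from outside the deleted part would still be counted, and their share was not tested. The Fosl2 count alone therefore does not check the labels. The paper reports depletion of the Fosl2 protein in granulosa cells of Fosl2cKO mice by immunoblot, which counts of RNA do not measure.

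**Figure D4:**
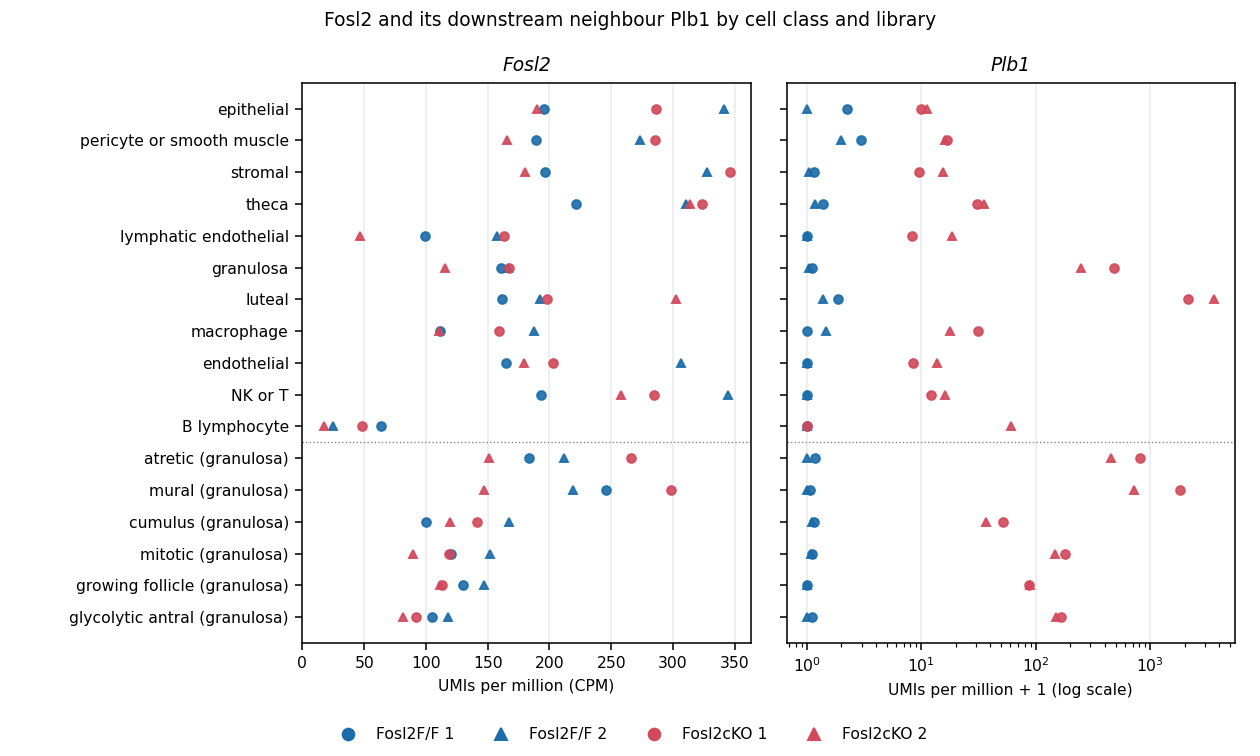
Level of Fosl2 (left x axis, CPM) and of Plb1, a gene downstream of it (right x axis, CPM + 1 on a log scale), in each class and granulosa subclass (y axis), with a point for each library. Plb1 is at or near 0 in every Fosl2F/F library and reaches its highest values in luteal, mural and atretic cells of the Fosl2cKO libraries, while the Fosl2 points of the conditions mostly intermix.

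A gene near Fosl2 did separate the conditions. Plb1, a phospholipase gene on the same strand that begins 74.9 kb downstream of Fosl2 (chr5:32232708-32366520), was the only gene called in granulosa cells and in each of the 6 subclasses, a call being an adjusted p under 0.1 with a log2 fold change over 0.25 in size. Plb1 is no member and its level was already known to differ when it was chosen for description. It had 7 and 2 UMIs in granulosa cells of the Fosl2F/F libraries against 23816 and 11872 in those of the Fosl2cKO libraries (477 and 245 CPM). Without either one of the Fosl2F/F libraries no gene passed the adjusted p in granulosa cells, Plb1 included, although its UMIs in the remaining Fosl2F/F library were still only these 7 or 2. Within granulosa cells it reached 1798 and 724 CPM in mural, 815 and 449 CPM in atretic, 179 and 147 CPM in mitotic and 50.8 and 36.0 CPM in cumulus cells of the Fosl2cKO libraries. Luteal cells held the most, with 2139 and 3631 CPM, theca cells held 29.4 and 34.1 CPM and stromal cells 8.55 and 14.6 CPM. Plb1 was also called in luteal, theca, stromal, pericyte or smooth muscle and endothelial cells and in macrophages. The part of free RNA in the Plb1 level of any class was not tested, so a call does not show that cells of the class transcribe it. In granulosa cells as a whole Plb1 thus separated the libraries by their labels, and the Fosl2 count did not.

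Cells of the Fosl2cKO libraries with and without Plb1 were therefore set side by side for the members. After thinning to 2000 UMIs, 79.0% and 65.6% of mural cells of libraries 1 and 2 had a Plb1 UMI, against 10.0% and 8.14% of cumulus cells and 96.6% and 97.1% of luteal cells. Mural cells with a Plb1 UMI held 295 and 156 Fosl2 CPM and those without it 209 and 126 CPM, so Fosl2 was not lower in the Plb1-positive cells of either library. In atretic cells the pairs were 236 against 220.0 CPM in library 1 and 194 against 113 CPM in library 2. In mitotic cells they were 153 against 113 and 77.3 against 84.3 CPM. The other members differed too. In mural cells of library 1, Fos was at 2257 against 2000 CPM and Fosb at 1698 against 1128 CPM. In library 2 both went the other way, at 1651 against 1818 and 1310 against 1374 CPM. The Fosl2 values rest on 15 to 164 UMIs on each side. No pair carries a test, since the genes were read in the same cells.

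**Figure D5:**
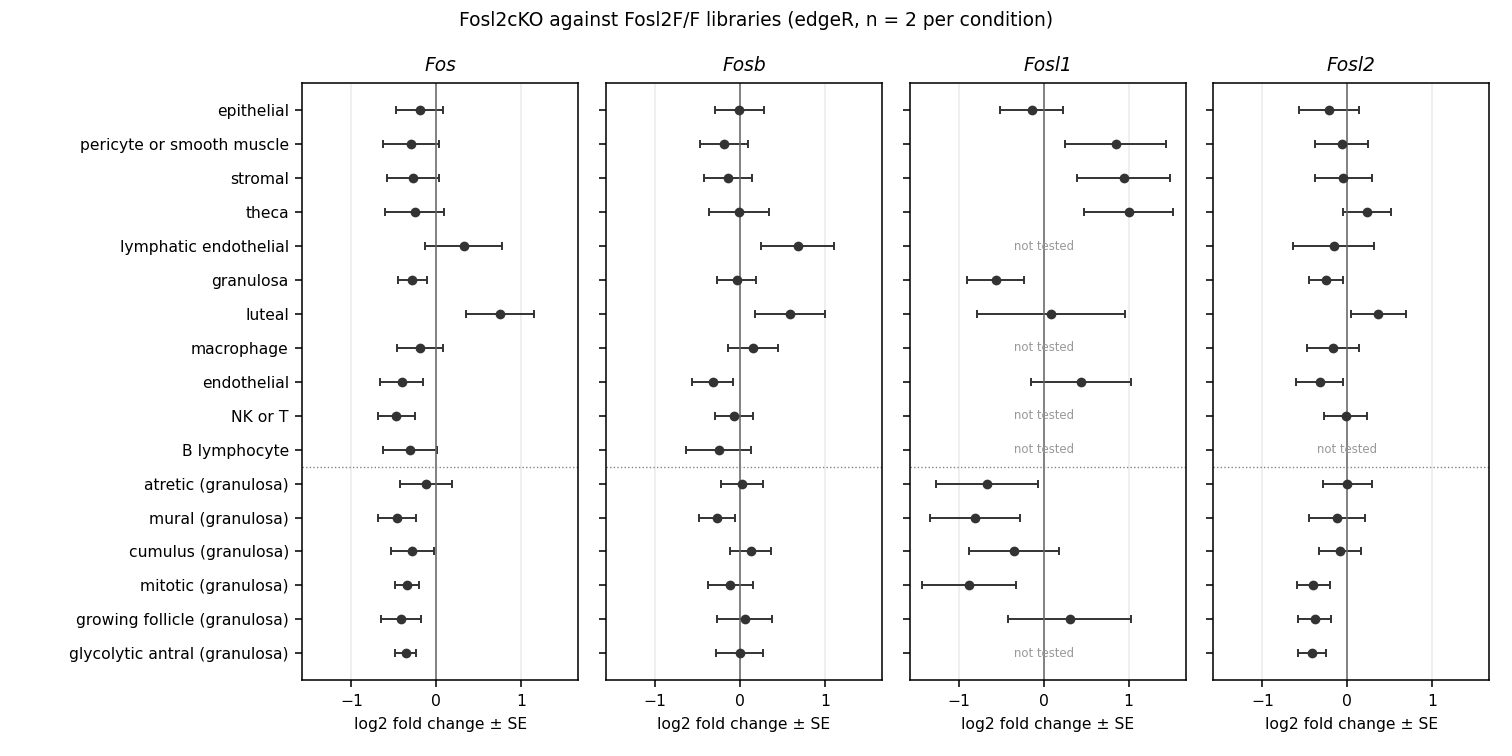
Log2 fold change of each member between the Fosl2cKO and Fosl2F/F libraries (x axis, points with standard errors from edgeR, n = 2 per condition) in each class and granulosa subclass (y axis). Most Fos and Fosl2 points lie left of 0 and luteal cells right of it, but none passed the threshold.

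Over 11 classes and 6 granulosa subclasses, 62 tests of a member against condition could be made, since Fosl1 fell under the count filter in 5 of the 17 and Fosl2 in 1. None of the 62 was called by edgeR, where 0.0858% of all 200439 gene by class tests were. The share was 0.00579% in granulosa cells and, by subclass, 0.00788% in mural, 0.00767% in atretic, 0.0076% in cumulus, 0.00815% in glycolytic antral, 0.0079% in growing follicle and 0.00688% in mitotic cells. It was 0.829% in NK or T cells, 0.28% in macrophages, 0.213% in endothelial, 0.134% in stromal, 0.115% in epithelial, 0.0484% in pericyte or smooth muscle, 0.0335% in theca and 0.0156% in luteal cells, and 0% in lymphatic endothelial cells and B lymphocytes. The unadjusted p was under 0.05 in 4 of the 62, against 5.65% of all tests, and DESeq2 also called 0. The study sampled as many ovaries or mice per group as there are libraries, and no source ties each library to a single animal, so the p-values measure the spread between these libraries.

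Fos had a negative estimate in 15 of 17 classes and subclasses. In glycolytic antral cells, a granulosa subclass rich in glycolytic transcripts, its log2 fold change was -0.36 (SE 0.12, edgeR adjusted p = 0.435), in mitotic cells -0.34 (SE 0.15), in mural cells -0.47 (SE 0.22) and in granulosa cells as a whole -0.28 (SE 0.17). The CPM of both Fosl2cKO libraries lay below both Fosl2F/F libraries in 5 of 6 granulosa subclasses, where 11% to 16.9% of all tested genes did the same. The subclasses come from the same 4 libraries and are not independent of each other. In NK or T cells Fos stood at 1119 and 929.9 CPM for Fosl2F/F and 811 and 739 CPM for Fosl2cKO (log2 fold change -0.47, SE 0.22, edgeR adjusted p = 0.425), a class in which 0.829% of genes were called and 18.1% lay below in the same way. Without library 2 of Fosl2F/F the NK or T value became -0.61 and was called (edgeR adjusted p = 0.0358), in a fit that called 473 of 8644 genes. Wherever a library is left out, the single library left in its group is assumed to vary like those of the other group.

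In luteal cells the estimates of Fos, Fosb and Fosl2 were positive. The class joins a cluster of 1544 cells led by Hsd17b7 with one of 501 cells led by Akr1c18. The first scored 0.54 for the luteal and 0.44 for the theca markers. The part of their mix in each library in these estimates was not tested. The luteal Fos level was 942 and 1329.8 CPM for Fosl2F/F and 1995 and 2168 CPM for Fosl2cKO, without overlap, as for 29.3% of all genes tested there (log2 fold change 0.75, SE 0.40, edgeR adjusted p = 0.53). Fosb was at 755 and 1179.7 CPM against 1414 and 1768 CPM (0.59, SE 0.41) and Fosl2 at 162 and 192 CPM against 198 and 302 CPM (0.37, SE 0.33). The difference of the Fos effect between granulosa and luteal cells was -1.06 (SE 0.48, edgeR interaction test, adjusted p = 0.77), which did not pass, in a comparison that called 0% of 17013 genes.

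The Fosb estimates ran from -0.32 (SE 0.24) in endothelial to 0.68 (SE 0.43) in lymphatic endothelial cells and -0.04 (SE 0.23) in granulosa cells. The lymphatic endothelial estimate became 1.43 and was called without library 2 of Fosl2F/F (edgeR adjusted p = 0.0302), in a fit that called 230 of 6278 genes, on a class with as few as 129 Fosb UMIs in a library. The Fosl2 estimates ran from -0.41 (SE 0.16) in glycolytic antral cells, where both Fosl2cKO libraries (91.8 and 81.7 CPM) lay below both Fosl2F/F libraries (105 and 118 CPM) as 16.9% of genes did, to 0.37 in luteal cells.

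The Fosl1 estimates differed in sign between classes. Fosl1 was at -0.57 (SE 0.33) in granulosa and -0.87 (SE 0.56) in mitotic cells, and at 0.94 (SE 0.55) in stromal, 1.0 (SE 0.53) in theca and 0.85 (SE 0.59) in pericyte or smooth muscle cells, with an edgeR adjusted p of 1.0 in each of the last 3. The positive estimates rested on library 1 of Fosl2cKO: in stromal cells the levels were 5.73 and 14.8 CPM for Fosl2F/F and 33.9 and 7.12 CPM for Fosl2cKO. Without that library the estimates became -0.60 in stromal, -0.13 in theca and -0.83 in pericyte or smooth muscle cells. Without library 2 of Fosl2cKO they became 1.68, 1.62 and 1.59 and were called, with edgeR adjusted p-values of 8.97e-05, 0.00118 and 0.00117. Those fits called 326 of 16470, 366 of 15631 and 201 of 13019 genes, against 21 of 15704, 5 of 14939 and 6 of 12385 with all libraries. The difference between mural and stromal cells was -2.06 (SE 0.59, unadjusted p = 0.0092, edgeR interaction test, adjusted p = 1.0), and it was called when no filter on low counts was set (-2.08, edgeR adjusted p = 0.0026), in a fit that called 185 of 25266 genes against 0 of 16245 with the filter.

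The Fosl2 effect was also compared between granulosa cells and each other class, since the Cre driver Cyp19a1 belongs to granulosa cells. The other classes include luteal cells, whose precursors are mural cells, so they are not a set known to lack Cre activity. The difference was -0.54 (SE 0.23, edgeR adjusted p = 1.0) against theca cells and -0.19 (SE 0.27, edgeR adjusted p = 1.0) against stromal cells, and -0.14 (SE 0.29) between mural and stromal cells. None of the members passed in any of the 11 interaction comparisons, which called 0.463% of genes against lymphatic endothelial cells, 0.356% against NK or T cells, 0.0934% against macrophages, 0.0128% against B lymphocytes, 0.00591% against endothelial cells and 0% in the other 6. Against stromal cells the sign changed to 0.14 without library 1 of Fosl2F/F and to 0.03 without library 1 of Fosl2cKO.

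The other genes of the pathway were taken from 4 lists: partners of Fos proteins and other AP-1 proteins, immediate early genes, genes upstream of Fos transcription and AP-1 target genes, the last of which holds Fosl1 itself. Of 217, 438, 305 and 262 tests of these lists over the 17 classes and subclasses, 1, 5, 0 and 0 were called, all upward in the Fosl2cKO libraries, where 0.0858% of all tests were called. Of the 6 calls, 4 fell in NK or T cells, in which 0.829% of all genes were called. In granulosa cells 0 genes of the 4 lists were called, and the medians of the 4 lists were 0.09, 0.06, 0.14 and -0.16 against -0.02 for all 17272 genes. In luteal cells 24 of 27 immediate early genes and 11 of 13 AP-1 partners had positive estimates (medians 0.83 and 0.80, against -0.02 for all 12836 genes), the direction of Fos and Fosb there, with 0 called. In atretic cells 23 of 27 and 12 of 13 were positive as well (medians 0.45 and 0.18, against -0.01 for all 13031 genes, 0 called). The Fos estimate there was -0.12 (SE 0.31), smaller than its SE, so its sign is not read.

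The called list genes were Ier5 in 3 classes and Btg1, Klf2 and Jund in NK or T cells. Ier5, an immediate early gene, stood in stromal cells at 22.4 and 24.03 CPM for Fosl2F/F and 63.7 and 99.6 CPM for Fosl2cKO (log2 fold change 1.74, SE 0.28, edgeR adjusted p = 0.040). In NK or T cells it rose by 2.25 (SE 0.42, edgeR adjusted p = 0.017) and in endothelial cells by 1.93 (SE 0.38, edgeR adjusted p = 0.086). Without library 2 of Fosl2cKO the call held in stromal cells (1.40) and was lost in NK or T cells (1.15) and endothelial cells (1.13). Without library 1 of Fosl2F/F it was lost in all 3 classes (edgeR adjusted p = 1.0, 0.16 and 1.0 in stromal, NK or T and endothelial cells), and without library 2 of Fosl2F/F in stromal and endothelial cells (0.78 and 0.74).

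Jund, a Jun partner of all 4 members, stood at 165 and 171 CPM in NK or T cells of the Fosl2F/F and at 204 and 1137 CPM in those of the Fosl2cKO libraries (log2 fold change 1.92, SE 0.46, edgeR adjusted p = 0.070). Library 2 of Fosl2cKO was the highest library for Jund in 11 of 11 classes, at 4.48 to 6.83 times the mean of the other 3, and without it the NK or T value fell to 0.22 and was no longer called. Klf2, a transcription factor of quiescent lymphocytes and endothelium, behaved alike, from 1.90 (edgeR adjusted p = 0.085) to 0.38. Both also lost the call without library 1 of Fosl2F/F (edgeR adjusted p = 0.29 and 0.46). Btg1, an antiproliferative gene, had a log2 fold change of 1.06 (edgeR adjusted p = 0.030) and 0.93 without library 2 of Fosl2cKO (edgeR adjusted p = 0.42), and 1.18 without library 1 of Fosl2cKO (edgeR adjusted p = 0.12). Both Fosl2cKO libraries lay above both Fosl2F/F libraries for Btg1 in all 11 tested classes and all 6 named granulosa subclasses, which all come from the same 4 libraries, and 14.1% to 29.3% of all genes tested there did the same. In granulosa cells Btg1 stood at 186 and 186 CPM for Fosl2cKO against 111 and 122 CPM for Fosl2F/F. The other Jun partners are named after their values were seen. In granulosa cells Jun stood at 1542 and 1557 CPM for Fosl2F/F and 1409 and 1694 CPM for Fosl2cKO, and Junb at 699 and 657 CPM against 755 and 498 CPM.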

How the data were processed

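Cells of 4 libraries were sequenced as single-cell 3′ RNA libraries, and the authors deposited whole-number UMI counts per gene and barcode, made with Cell Ranger against mm10 (GRCm38). Their methods name CellBender, a remover of free RNA, and the sources do not say whether the deposited counts were passed through it. Cells with at least 500 genes and 1000 UMIs, at most 10% mitochondrial and 0.1% haemoglobin UMIs were kept, and doublets were removed by Scrublet score (scanpy 1.11.5) at 0.8% per 1000 cells. This removed 7.01% and 19.4% of the filtered cells in libraries 1 and 2 of Fosl2F/F. In libraries 1 and 2 of Fosl2cKO it removed 5.74% and 6.00%. Libraries were integrated and clustered in Seurat 5.3.0 with sctransform 0.4.2 on 3000 features without the 4 members. Clusters were named from marker lists, and the limits for naming were set after the clusters were seen. UMIs were summed per library and class of at least 20 cells, scaled to CPM for levels, and tested in edgeR 4.0.16 (R 4.3.3) by the quasi-likelihood test with TMM scaling, filterByExpr and Benjamini-Hochberg adjustment over all genes. Calls were made below an adjusted p of 0.1 where the log2 fold change exceeded 0.25 either way. Differences between classes were tested as an interaction with library as a block. DESeq2 1.42.0, filters, clustering and omission of each library were tried as alternatives. Members, gene lists and named genes (the members, Cyp19a1, at most 5 called genes of the lists a comparison and the 5 genes most like each member) were chosen with earlier results of these data known. Intervals of spread are over libraries and n is 2 per condition. The fits were tested on simulated data.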

Additional observations from a re-analysis of the deposited data

How the results depend on the processing

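Fos in atretic cells and Fosl2 in mitotic and growing follicle cells are left out of this comparison. No other log2 fold change of a member given in the report changed sign under DESeq2, the filters, the other clusterings or the replicate block. The sign changes among these came from leaving out 1 library. The Fosl2 estimate in mural cells ranged from -0.71 to 0.30, Fosb in granulosa cells from -0.27 to 0.19, and Fosl1 from -0.83 to 1.59 in pericyte or smooth muscle, -0.60 to 1.71 in stromal and -0.13 to 1.62 in theca cells. The Fosl2 difference ranged from -0.57 to 0.27 between mural and stromal cells and from -0.53 to 0.14 between granulosa and stromal cells. Estimates that kept their sign moved too when 1 library was left out. Luteal Fosl2 ranged from 0.05 to 0.62, luteal Fosb from 0.30 to 0.96 and endothelial Fosb from -0.58 to -0.10. Mitotic Fosl1 ranged from -1.37 to -0.48, and the Fosl2 difference between granulosa and theca cells from -0.77 to -0.29. With all libraries kept, Fos in glycolytic antral cells ranged from -0.36 to -0.20 over the other settings. Member tests called ranged from 0 to 3 over the left-out libraries (2 without library 2 of Fosl2F/F, 3 without library 2 of Fosl2cKO) and were 0 under every other setting. Without a filter on low counts, the Fosl1 difference between mural and stromal cells was called (-2.08, edgeR adjusted p = 0.0026), in a fit that called 185 of 25266 genes against 0 of 16245. The cause of these changes was not tested.

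The number of genes called depended on the setting. In granulosa cells it was 1, against 172 with DESeq2, 269 with no filter on low counts, 30 with the replicate block and 0 to 133 without 1 library. In mural cells it was 1, against 74 with DESeq2, 314 with no filter, 8 with the replicate block, 2 under 5% mitochondrial UMIs, 2 without integration and 4 to 81 without 1 library. Over all classes the 172 calls became 1439 with DESeq2, 5384 with no filter and 82 at an adjusted p under 0.05. Member levels that moved by over 1.5 times are given in the report, apart from Fosl1 in lymphatic endothelial cells (1.46 CPM without library 1 of Fosl2cKO, against 4.02) and macrophages (1.26 CPM with finer clusters, against 2.02). Thinning to 1000 UMIs lowered the shares in granulosa cells to 75.8% for Fos, 55.5% for Fosb and 14.5% for Fosl2, as fewer UMIs must.

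Replicate numbers are shared by the conditions but nothing says that they pair libraries, and deviations of same-numbered libraries correlated at -0.27 to 0.07 over the 17 classes and subclasses. With the replicate block, the Fosl2 estimate was -0.27 in granulosa and -0.20 in mural cells, and 670 calls were made over all classes. With the pairing crossed, an alternative added after the data were seen, there were 2979. Depth limits B lymphocytes and lymphatic endothelial cells most, where a Fosl2 level rests on as few as 1 and 8 UMIs in a library.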
